A study of Mus musculus with 10 samples.

Results

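The 7 transcripts described here are Mir17hg, Mir22hg, Mirg and Mir9-3hg, which are host transcripts of microRNAs (miRNAs), and Mir295, Mir7079 and Mir5136, which are entries for single miRNA hairpins. They are 7 of the 51467 genes in a 3′-end count table of mouse embryonic stem cells (ESCs), and all 7 were among the 11683 genes that reached 3 CPM, the count scaled to a common library total, in at least 3 libraries. The members were selected on their values in DGCR8 knockout (KO) and DDX6 KO cells against wild type (WT), so those differences are given as descriptions without a test. Mir295 passed the filter only through the DGCR8 KO libraries, where 3 of its 3 libraries reached 3 CPM, against 0 of the other 7. Mir9-3hg passed only through the DDX6 KO libraries, where 4 of 4 reached 3 CPM, against 0 of the other 6.

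The WT cells were V6.5 ESCs and gave 3 libraries. DGCR8 KO cells, which lack the RNA-binding partner of the nuclease Drosha, gave 3 libraries, and the labels name no clone for them. DDX6 KO cells, which lack an RNA helicase of the miRNA effector pathway, gave 4 libraries from 2 clones, with 2 libraries each. The labels state that the knockouts were made with CRISPR, while the study describes the DGCR8 KO line as one from earlier work and the DDX6 KO clones as made from V6.5 cells and edited in an exon of Ddx6 to give a premature stop. All cells grew in Knockout DMEM with serum, LIF and the inhibitors PD0325901 and CHIR99021 (2i). Nothing in the labels says that the libraries of a group came from separate cultures, so the errors measure the spread between libraries only. In bulk libraries, fewer cells of a type and less RNA per cell cannot be told apart.

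Most miRNAs start as a hairpin within a long primary transcript that is capped, polyadenylated and often spliced. In the nucleus the Microprocessor, made of Drosha and DGCR8, cuts the hairpin out, and the rest of the transcript is usually degraded. In ESCs the miR-290 cluster and the miR-17-92 cluster supply miRNAs with related seeds that act on cell cycle and differentiation genes. A seed is the stretch from base 2 to base 8 of the mature miRNA that pairs with targets.

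The host transcripts differ in where their hairpins lie. Mir17hg (ENSMUSG00000089726.2, mm10 chr14:115042879-115046727, plus strand) holds 6 hairpins, all 6 within an exon, and its annotated end lies 2221 bases beyond the last of them, Mir92-1. Mir22hg (ENSMUSG00000085148.1, chr11:75461539-75466676, plus strand) holds Mir22 in its exon 2, 2866 bases before its end. Mirg (ENSMUSG00000097391.8, chr12:109729764-109749460, plus strand) is an imprinted non-coding RNA with 14 hairpins on its strand, of which 4 lie within exons, 4 overlap an exon edge and 6 lie in introns. Mir9-3hg (ENSMUSG00000097023.8, chr7:79500117-79534403, plus strand) carries Mir9-3 in its first intron, 29050 bases before its end. The hairpin entries inside these 4 hosts held 1 count in all 10 libraries together. The counting command sets no option for a read that overlaps exons of 2 genes, which the program then assigns to neither, and reads come from next to the poly(A) tail, so the host values count transcript ends and do not tell an uncut transcript from the part left downstream of a cut.

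**Figure D1:**
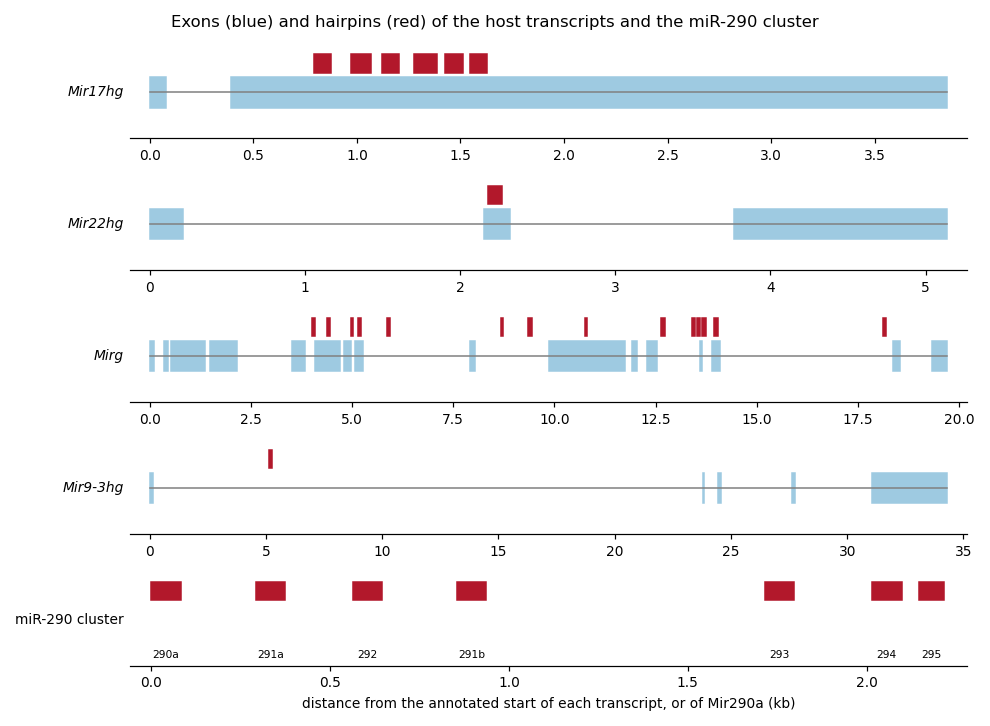
Position of exons (blue) and hairpins (red) along the 4 host transcripts and the miR-290 cluster, as distance in kb from the annotated start of the transcript or of Mir290a. The 6 hairpins of Mir17hg sit within its long last exon, the hairpin of Mir9-3hg sits in its first intron, and Mir294 and Mir295 are the last hairpins of the miR-290 cluster.

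The mature miRNAs of the Mir17hg hairpins are shown because letters in some of their seeds recur in seeds of the miR-290 cluster. Sequences are those of RefSeq on GRCm38.p6, 5′ to 3′, with the seed in capitals. The RefSeq table held all 31 hairpins of the members and of the miR-290 cluster.
miR-17-5p: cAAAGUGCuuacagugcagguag
miR-20a-5p: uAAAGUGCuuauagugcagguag
miR-18a-5p: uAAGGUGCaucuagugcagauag
miR-19a-3p: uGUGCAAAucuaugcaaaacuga
miR-19b-3p: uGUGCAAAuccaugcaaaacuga
miR-92a-3p: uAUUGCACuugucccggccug
The first pair shares 1 seed and miR-19a-3p shares another with miR-19b-3p, while miR-18a-5p and miR-92a-3p each have their own.

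Of the miR-290 cluster 6 miRNAs are shown for comparison, in their order along chromosome 7. That of Mir292, which lies between Mir291a and Mir291b, is not shown.
miR-290a-3p: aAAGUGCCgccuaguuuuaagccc
miR-291a-3p: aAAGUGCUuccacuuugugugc
miR-291b-3p: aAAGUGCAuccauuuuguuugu
miR-293-3p: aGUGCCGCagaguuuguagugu
miR-294-3p: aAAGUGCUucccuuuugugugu
miR-295-3p: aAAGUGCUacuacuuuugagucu
The seeds of miR-291a-3p, miR-294-3p and miR-295-3p are identical. The letters AAGUGC begin the seeds of all 6 shown except miR-293-3p. In miR-17-5p and miR-20a-5p the same letters end the seed, so they stand at shifted bases. No whole seed of the Mir17hg miRNAs is the same as one of these 6. From the other hosts 4 miRNAs are given, whose seeds are not shared with any of those above.
miR-22-3p: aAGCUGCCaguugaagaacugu
miR-9-5p: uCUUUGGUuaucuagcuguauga
miR-134-5p: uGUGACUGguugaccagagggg
miR-410-3p: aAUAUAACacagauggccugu
The first is cut from Mir22hg, the second from Mir9-3hg and other loci, and the last pair from Mirg.

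The libraries held 2131156 to 4745083 counts over genes, so that 3 counts, taken as the floor, stood for 0.669 to 1.44 CPM. Dgcr8 fell from 50.4 to 65.8 CPM in WT to 9.16 to 15.5 CPM in DGCR8 KO libraries, and Ddx6 fell from 505 to 586 CPM to 135 and 149 CPM in clone 1 and 25.7 and 39.0 CPM in clone 2. The summed level of 6 ESC markers was 2564 to 2769 CPM in WT, 2457 to 2591 CPM in DGCR8 KO and 3009 to 3167 CPM in DDX6 KO libraries. The summed level of 3 neural markers was 5.57 to 6.81 CPM in WT, 10.2 to 12.2 CPM in DGCR8 KO and 4.76 to 5.98 CPM in DDX6 KO libraries, and that of 6 fibroblast markers was 3.12 to 4.32, 2.44 to 3.37 and 4.57 to 9.52 CPM, with Dcn and Postn at 0 in 9 of 10 libraries each. The genes of a list did not all move with its sum. Of the neural markers, Pax6 and Map2 had higher means in DGCR8 KO than in WT, while Neurod1 had a lower one. Of the ESC markers, Nanog, Klf4, Esrrb and Zfp42 had higher means in DDX6 KO than in WT, while Sox2 and Pou5f1 had lower ones. The part of these marker shifts in the values below was not tested. The 644 tested genes of chromosome 8, which holds Mir7079, had a median log2 difference of -0.45 in DGCR8 KO.

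Calls came from a fit over all tested genes and needed both an adjusted p-value under 0.05 and a log2 difference above 1 or below -1. By that definition 14.7% of all tested genes were called in DGCR8 KO, 8.93% higher and 5.81% lower, and 11.2% in DDX6 KO, 7.55% higher and 3.66% lower. Among the members 4 were higher and 2 lower in DGCR8 KO, and 2 were higher and 0 lower in DDX6 KO, which follows from how they were chosen. Values are CPM after scaling of the libraries, and log2 differences come from the fit with their standard error (SE).

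Mir17hg, the host of the miR-17-92 cluster, was high in DGCR8 KO and close to WT in DDX6 KO. It stood at 15.4, 12.6 and 15.6 CPM in the WT libraries, 77.5, 103 and 76.2 CPM in DGCR8 KO, 12.5 and 12.2 CPM in clone 1 and 11.3 and 10.4 CPM in clone 2. Every DGCR8 KO library lay above every other library, and all 4 DDX6 KO libraries lay just below the lowest WT library. The log2 difference from WT was 2.53 (SE 0.19) in DGCR8 KO, or 5.79-fold, and -0.34 (SE 0.23) in DDX6 KO. The order of the means was DGCR8 KO, WT, clone 1 and clone 2, and no neighbours in it overlapped, although the step between WT and clone 1 was only 14.5 ± 1.67 CPM (SD, n = 3) against 12.3 ± 0.20 CPM (SD, n = 2).

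Mir22hg, the host of miR-22, was higher in both knockouts. Its levels were 4.32, 4.77 and 3.34 CPM in WT, 19.9, 9.84 and 13.4 CPM in DGCR8 KO, 15.0 and 10.1 CPM in clone 1 and 12.3 and 8.12 CPM in clone 2. All 7 KO libraries lay above all 3 WT libraries, and the knockouts overlapped each other. The log2 difference was 1.78 (SE 0.38) in DGCR8 KO and 1.43 (SE 0.37) in DDX6 KO, and between the knockouts it was 0.36 (SE 0.27). Without WT replicate 3, the lowest WT library, the value in DDX6 KO was 1.21 and no longer met the definition of a call.

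Mirg, the most 3′ of the large non-coding RNAs of the Dlk1-Dio3 region, met the definition of a call in DGCR8 KO. It was at 4.32, 12.6 and 12.5 CPM in WT, 22.4, 17.6 and 26.9 CPM in DGCR8 KO, 9.52 and 7.30 CPM in clone 1 and 5.28 and 6.16 CPM in clone 2. The DGCR8 KO libraries lay above all others, and the DDX6 KO libraries overlapped WT because WT replicate 1 was low. The log2 difference was 1.13 (SE 0.30) in DGCR8 KO and -0.52 (SE 0.35) in DDX6 KO. Without WT replicate 1 it was 0.79 in DGCR8 KO, which is inside the limit of 1.

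Mir9-3hg, the host of 1 of the genes for miR-9, a miRNA known from neural development, had the opposite pattern. Its counts were 4, 4 and 7 in WT, 2, 2 and 1 in DGCR8 KO, 19 and 10 in clone 1 and 17 and 19 in clone 2. That corresponded to 1.36 to 1.92 CPM in WT and 3.48 to 6.96 CPM in DDX6 KO, without overlap. The log2 difference in DDX6 KO was 1.65 (SE 0.43), with 1.55 (SE 0.50) in clone 1 and 1.73 (SE 0.48) in clone 2. The DGCR8 KO libraries, each at or under the floor of 3 counts, lay below all 3 WT libraries. They held 5 counts in all against 15 in WT, a ratio of 0.365 with a 95% exact counting interval of 0.104 to 1.06.

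**Figure D2:**
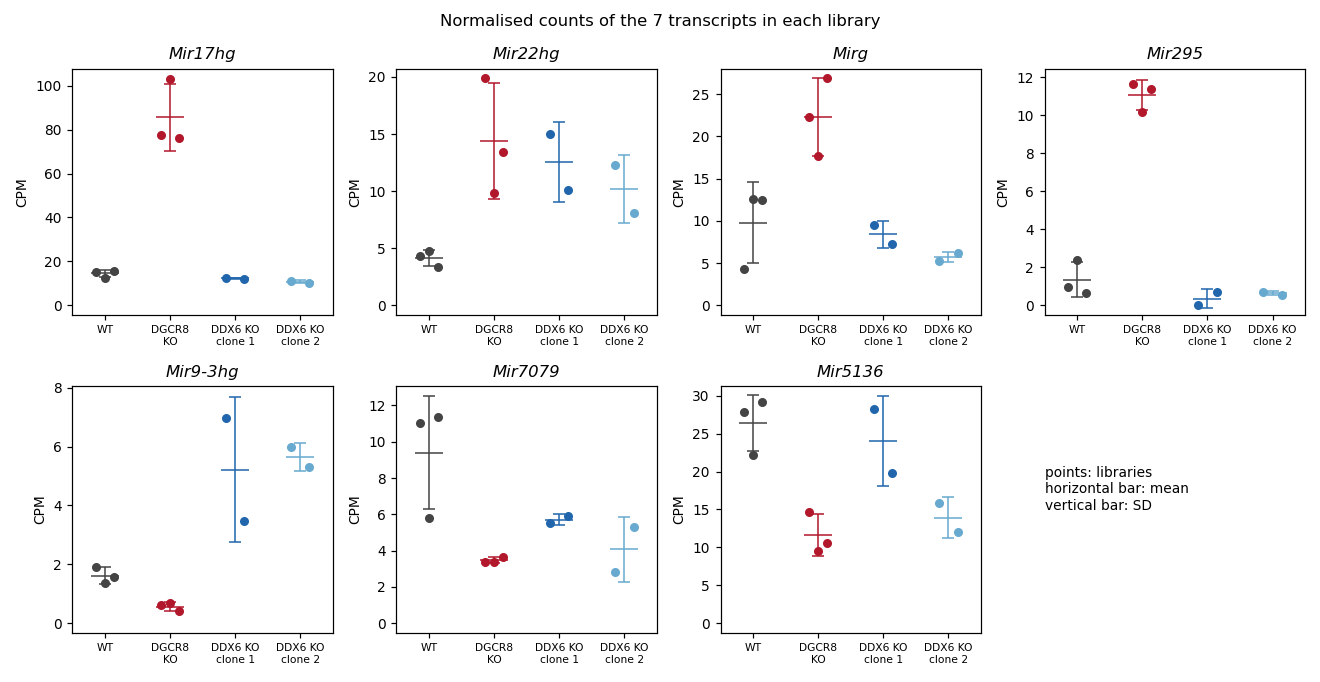
Normalised counts (CPM) of the 7 members in each library, by WT, DGCR8 KO and both DDX6 KO clones. Points are libraries, horizontal bars means and vertical bars SD. The DGCR8 KO points of Mir17hg, Mirg and Mir295 stand above all others, those of Mir22hg above WT only, and Mir9-3hg is highest in the DDX6 KO clones.

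Mir295 is the last hairpin of the miR-290 cluster, which is the main source of miRNAs in ESCs. The file gives it as an entry of 69 bases (ENSMUSG00000077886.1, chr7:3220773-3220841, plus strand). No host transcript of the cluster on its strand overlaps it in the count table, so reads of the primary transcript could be assigned only where they met a hairpin entry, and the 1 other gene that overlaps it, Nlrp12, lies on the opposite strand. Mir295 had 2, 7 and 3 counts in WT, 38, 30 and 28 in DGCR8 KO, 0 and 2 in clone 1 and 2 and 2 in clone 2. The DGCR8 KO libraries, at 10.2 to 11.6 CPM, stood far above the WT libraries, at 0.669 to 2.39 CPM. The log2 difference in DGCR8 KO was 3.15 (SE 0.50). The counts gave a ratio of 8.77 with a 95% exact interval of 4.80 to 17.6, which covers counting error only. In DDX6 KO, where every library was at or under the floor of 3 counts, the ratio to WT was 0.395 with an interval of 0.122 to 1.138.

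The other entries of the cluster gave unlike ratios of DGCR8 KO to WT. Mir294, which failed the filter, had 2, 0 and 1 counts in WT, 14, 12 and 6 in DGCR8 KO and 0 to 2 in the DDX6 KO libraries. Its ratio in DGCR8 KO was 11.7 (95% exact counting interval 3.66 to 59.7). Mir290a, the first hairpin, had 9 counts in WT and 23 in DGCR8 KO, a ratio of 2.80 (1.25 to 6.88). Mir293, which lies 218 bases before Mir294, had 28 counts in WT and 24 in DGCR8 KO, a ratio of 0.940 (0.521 to 1.68). Mir291a, Mir292 and Mir291b held 0 to 3 counts in each library. Mir294 and Mir295 together held 15 of the cluster's 53 counts in WT, 128 of 181 in DGCR8 KO and 9 of 50 in DDX6 KO. Of the 128 counts in DGCR8 KO, 96 were those of Mir295, which was chosen for its level there, so the share is a description. Per library it was 22.2% to 36.4% in WT, 65.6% to 73.9% in DGCR8 KO and 13.3% to 28.6% in DDX6 KO.

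**Figure D3:**
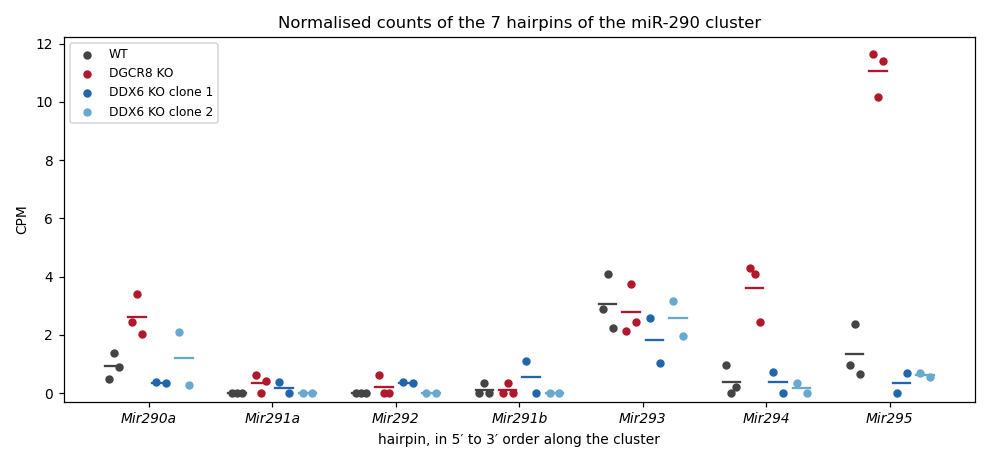
Normalised counts (CPM) of the 7 hairpin entries of the miR-290 cluster in 5′ to 3′ order. Points are libraries and short bars group means. Mir294 and Mir295 are high in the 3 DGCR8 KO libraries only, while Mir293 has similar levels in every group.

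Mir7079 and Mir5136 were lower in DGCR8 KO, and each lies beside or inside another transcribed gene. Mir7079 (ENSMUSG00000098550.1, chr8:123104975-123105043, plus strand, 69 bases) lies in the last intron of Rpl13, which encodes a protein of the large ribosomal subunit. It touches the last exon with 0 bases between them, and that exon ends 201 bases downstream. Mir5136 (ENSMUSG00000093314.1, chr19:8888699-8888774, minus strand, 76 bases) ends 13 bases upstream of Snora57, a small nucleolar RNA gene on the same strand, and overlaps Lbhd1 on the opposite strand. Snora57 was added after its values were seen. The mature miRNAs are in capitals in the hairpins of the 3 single entries.
Mir295: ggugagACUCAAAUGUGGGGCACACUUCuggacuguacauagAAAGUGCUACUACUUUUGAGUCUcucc
Mir7079: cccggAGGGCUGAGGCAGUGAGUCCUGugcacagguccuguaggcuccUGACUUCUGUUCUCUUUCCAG
Mir5136: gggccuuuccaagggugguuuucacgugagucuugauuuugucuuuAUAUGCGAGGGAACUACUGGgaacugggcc
The last 3′ base of Mir7079 is also the last base of the Rpl13 intron.

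Mir7079 was at 11.04, 5.79 and 11.4 CPM in WT, 3.37, 3.39 and 3.67 CPM in DGCR8 KO, 5.49 and 5.91 CPM in clone 1 and 2.81 and 5.32 CPM in clone 2. The DGCR8 KO libraries lay below all WT libraries, and the DDX6 KO libraries overlapped WT. The log2 difference was -1.36 (SE 0.40) in DGCR8 KO and -0.92 (SE 0.33) in DDX6 KO. With the median of chromosome 8 subtracted the first was -0.90, and without WT replicate 3 it was -1.10 and not past the threshold. Rpl13 itself differed from WT by -0.78 (SE 0.18) in DGCR8 KO and -0.70 (SE 0.16) in DDX6 KO on the log2 scale (limma adjusted p = 0.00224 and 0.00314). These Rpl13 values are without the chromosome 8 median subtracted, which was -0.45 in DGCR8 KO and -0.03 in DDX6 KO. For every 100 Rpl13 counts there were 2.06 to 3.15 Mir7079 counts in WT, 1.52 to 1.89 in DGCR8 KO and 1.41 to 3.46 in DDX6 KO libraries.

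Mir5136 was at 27.8, 22.1 and 29.2 CPM in WT, 14.7, 9.50 and 10.6 CPM in DGCR8 KO, 28.2 and 19.8 CPM in clone 1 and 15.8 and 12.03 CPM in clone 2. The DGCR8 KO and clone 2 libraries lay below all WT libraries and those of clone 1 overlapped them. The log2 difference was -1.18 (SE 0.28) in DGCR8 KO and -0.58 (SE 0.23) in DDX6 KO. Snora57 differed by -1.45 (SE 0.37) in DGCR8 KO and by -0.51 (SE 0.28) in DDX6 KO. These values are given without a test, because they were seen before the gene was added. Lbhd1, on the opposite strand, differed by -0.60 (SE 0.30, limma adjusted p = 0.136) in DGCR8 KO. In DDX6 KO it differed by -0.79 (SE 0.29, limma adjusted p = 0.0413). For every 100 Snora57 counts there were 89.2 to 148 Mir5136 counts in WT, 92.9 to 215 in DGCR8 KO and 59.7 to 275 in DDX6 KO libraries, which overlapped.

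The comparison of the DDX6 KO clones was not used to choose the members, and it was tested. None of the 7 members was called between clone 2 and clone 1 with limma, edgeR or DESeq2 (limma adjusted p = 0.99975 for each). Of the 7, 1 member, Mir5136, had an unadjusted p-value under 0.05, beside 284 of the 11683 tested genes. Over all tested genes 0.0428% were called, which was 5 genes. The log2 difference of Mir5136 in clone 2 from clone 1 was -0.78 with a 95% interval of -1.39 to -0.18. All these intervals are not adjusted for the number of genes. The intervals of the other differences were -0.89 to 0.50 for Mir17hg, -1.11 to 0.47 for Mir22hg, -1.56 to 0.51 for Mirg and -0.71 to 1.08 for Mir9-3hg. They were -1.55 to 0.56 for Mir7079 and -1.28 to 3.21 for Mir295. A 2-fold difference between the clones lay within the interval of every member except Mir17hg.

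**Figure D4:**
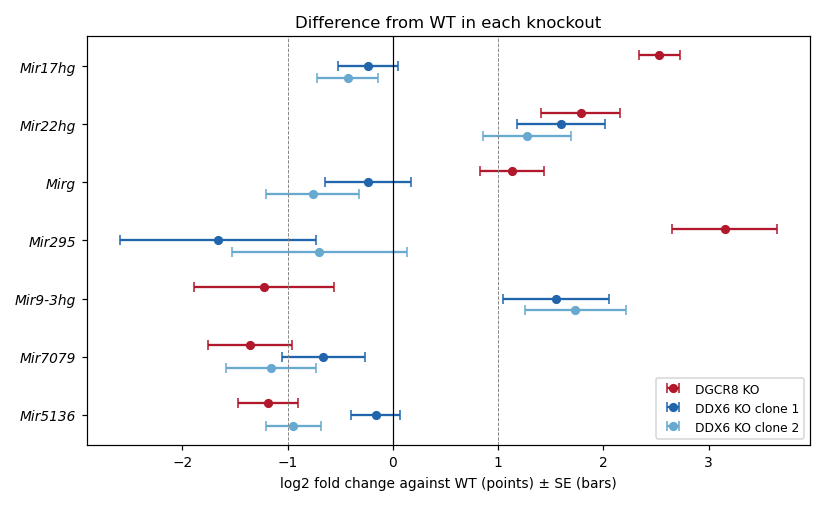
Difference from WT on the log2 scale for the 7 members in DGCR8 KO and both DDX6 KO clones, with points for fitted values and bars for SE. Dashed lines mark 2-fold. Mir22hg is right of the line in all 3, Mir17hg, Mirg and Mir295 in DGCR8 KO, and Mir9-3hg in the DDX6 KO clones. The DDX6 KO values of Mir295 and the DGCR8 KO value of Mir9-3hg rest on libraries at or under 3 counts.

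Set side by side, the knockouts differed most in Mir295, Mir9-3hg and Mir17hg. The fitted log2 difference of DGCR8 KO from DDX6 KO was 4.31 (SE 0.58) for Mir295, 2.87 (SE 0.19) for Mir17hg, 1.65 (SE 0.30) for Mirg and -2.87 (SE 0.58) for Mir9-3hg. It was -0.61 (SE 0.29) for Mir5136, -0.43 (SE 0.42) for Mir7079 and 0.36 (SE 0.27) for Mir22hg. The libraries that chose the members enter these values, so no test was made.

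Around the limit of fold, Mirg at 1.13 and Mir5136 at -1.18 in DGCR8 KO lay just beyond it. Mir7079 at -0.92 in DDX6 KO fell just short of it. Without WT replicate 2, the lowest WT library, Mir7079 was at -1.22 there and met the definition of a call. Mir9-3hg at -1.22 in DGCR8 KO and Mir295 at -1.15 (SE 0.72) in DDX6 KO were beyond the limit of fold and failed that of the adjusted p-value. Both values rest on KO libraries at or under the floor of 3 counts. Among hairpin entries that are no members, Mir5117 at -1.33 (SE 0.55) and Mir1983 at -1.25 (SE 0.54) passed the limit of fold in DGCR8 KO and failed that of the adjusted p-value.

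Mirg was set against the other genes of the Dlk1-Dio3 region on chromosome 12, an imprinted domain in which Meg3, Rian and Mirg are non-coding RNAs of the maternal chromosome and Dlk1, Rtl1 and Dio3 are coding genes of the paternal one. Of 8 listed genes 6 were tested, and 2 were called in DGCR8 KO, Dlk1 and the member Mirg itself, beside 14.7% of all tested genes. In DDX6 KO 1 was called, Dio3, beside 11.2%. The median log2 difference of the 6 was -0.17 and -0.21, against 0.00 and 0.02 for all tested genes. Dlk1, a non-canonical Notch ligand, fell in DGCR8 KO from 13.1 ± 1.66 CPM (SD, n = 3) to 5.92 ± 1.74 CPM (SD, n = 3), a log2 change of -1.21 (SE 0.32, limma adjusted p = 0.00556). Dio3, an enzyme that inactivates thyroid hormone, rose in DDX6 KO from 19.4 ± 2.35 CPM (SD, n = 3) to 103 ± 10.96 CPM (SD, n = 4), a log2 change of 2.40 (SE 0.16, adjusted p = 1.3e-08).

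Meg3 and Rian, which precede Mirg on the same strand, were not called in DGCR8 KO. Meg3 differed there by 0.07 (SE 0.20, limma adjusted p = 0.814) and Rian by -0.43 (SE 0.20, adjusted p = 0.0960), against 1.13 (SE 0.30) for Mirg. In DDX6 KO, Meg3 differed by -0.55 (SE 0.19, adjusted p = 0.0348) and Rian by -0.69 (SE 0.19, adjusted p = 0.00815), both short of the limit of fold. For every 100 Rian counts there were 14.5, 33.0 and 29.2 Mirg counts in WT, 85.9, 73.2 and 74.2 in DGCR8 KO, and 27.3 to 32.1 in DDX6 KO libraries. The DGCR8 KO libraries thus lay apart from all others in this ratio also. For every 100 Meg3 counts the Mirg counts were 5.92 to 9.44 in WT, 15.8 to 23.5 in DGCR8 KO and 5.79 to 12.1 in DDX6 KO. WT replicate 1 was lowest among WT libraries for all 3 transcripts. Rtl1 was at 0 in every library, Begain held 0 to 2 counts, and Wdr25, at 2.83 ± 0.09 CPM in WT (SD, n = 3), differed by less than its SE in both knockouts.

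**Figure D5:**
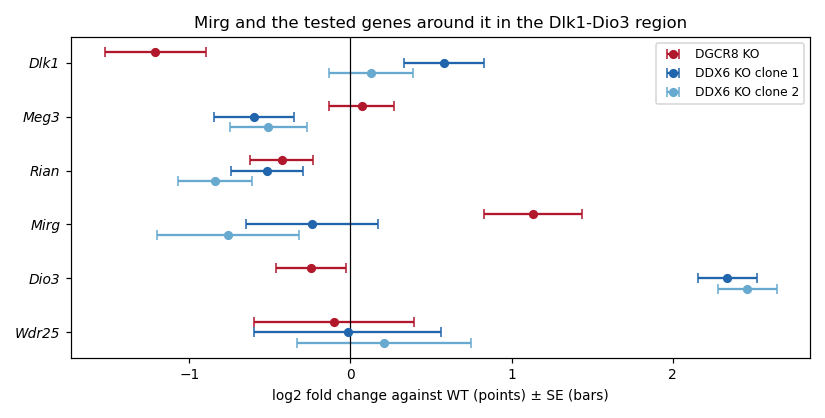
Difference from WT on the log2 scale for Mirg and the 5 other tested genes of the Dlk1-Dio3 region, with points for fitted values and bars for SE. In DGCR8 KO Mirg is at 1.13 while Meg3 is at 0.07 and Rian at -0.43. Dio3 is high in both DDX6 KO clones.

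The other tested hairpin entries and host transcripts are what the choice of the members left. The members were chosen on their values in these same comparisons, so the lack of calls below is no background for them. Outside the 7 members, 9 such genes were tested, and 0 were called in DGCR8 KO or in DDX6 KO with limma, edgeR or DESeq2, with 3 and 1 at an unadjusted p-value under 0.05. Their median log2 difference was -0.07 in DGCR8 KO and -0.24 in DDX6 KO. They were Mir5117, Mir703, Mir293, Mir6236, Mir1983, Gm24276, Gm23935, Gm26384 and Gm24951. Mir703, the entry with the most counts, was at 189 ± 42.7 CPM in WT (SD, n = 3), 199 ± 12.02 in DGCR8 KO (SD, n = 3) and 155 ± 17.6 in DDX6 KO (SD, n = 4).

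Genes that carry a hairpin on their own strand, other than those above, numbered 572 among the tested genes. In DGCR8 KO 77 were called higher and 22 lower, or 13.5% and 3.85%, and their median log2 difference was 0.13. Where the hairpin overlapped an exon, 22 of 137 were called higher (16.1%) and 7 lower (5.11%), and where it lay in introns only, 55 of 435 were higher (12.6%) and 15 lower (3.45%). Over all tested genes the shares were 8.93% higher and 5.81% lower. In DDX6 KO 33 of the 572 were called higher and 13 lower, or 5.77% and 2.27%, beside 7.55% and 3.66% over all tested genes. Their median was 0.03, and for hairpins in an exon the numbers were 9 and 1 of 137.

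Among those called in DGCR8 KO, the transcript E130102H24Rik, which carries Mir101a in an exon, resembled Mir17hg in being high in DGCR8 KO only. It rose from 1.90 ± 1.32 CPM in WT (SD, n = 3) to 18.3 ± 0.41 CPM (SD, n = 3), with 1.65 ± 0.52 CPM in DDX6 KO (SD, n = 4), and the log2 change was 3.32 (SE 0.41, limma adjusted p = 6.6e-06). Maml2, a coactivator of Notch signalling with an entry Gm22643 in an exon, rose from 3.03 ± 1.40 to 20.1 ± 2.26 CPM. Syne2, which encodes a nuclear envelope protein and holds Mir5101 in an exon, rose from 27.4 ± 3.72 to 254 ± 34.5 CPM in DGCR8 KO and to 76.5 ± 7.16 CPM in DDX6 KO. Ccdc141, with an intronic entry, rose in both, from 10.1 ± 2.42 to 131 ± 17.1 and 65.8 ± 2.67 CPM. Arsb, a lysosomal sulphatase gene, had 0 counts in WT, 2 to 13 in DGCR8 KO and 4 to 9 in DDX6 KO libraries. The genes that fell most in DGCR8 KO were Gap43, Slfn9, Chst3, Pou2f2 and Zfp791, at 4.76 to 11.7 CPM in the WT means except Zfp791 at 3.85, and at 0.317 to 1.73 CPM in DGCR8 KO. Zfp791 lies on chromosome 8.

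In DDX6 KO the carriers that changed most were intronic. Mest, an imprinted gene that carries Mir335, rose from 66.97 ± 8.68 CPM in WT (SD, n = 3) to 380 ± 83.7 CPM (SD, n = 4), a log2 change of 2.503 (SE 0.18, limma adjusted p = 2.7e-08). Mest lies on chromosome 6, where the median log2 difference of tested genes in DDX6 KO was 0.59. Trpm1, which carries Mir211, had 0 to 2 counts in WT and 6 to 19 in DDX6 KO, and Usp17lc had 1 to 2 and 6 to 20. Slit2, the axon guidance gene with Mir218-1, fell from 8.26 ± 1.4998 to 0.737 ± 0.76 CPM, and Smoc1, with Mir3067, fell from 16.9 ± 4.31 to 2.75 ± 0.40 CPM. Chst3 and Mybl2 also fell, to 2.54 ± 0.63 and 86.4 ± 15.7 CPM.

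Of 10 listed genes that act on primary miRNAs and hairpins 9 were tested. In DGCR8 KO only Dgcr8, the targeted gene, was called, with -2.34 (SE 0.25), beside 14.7% of all tested genes. Drosha, the nuclease, Ddx17, a helicase of the Microprocessor, and Dicer1, which cuts the exported hairpin, were higher by 0.38 each at an adjusted p-value under 0.05 (limma adjusted p = 0.0488, 0.00406 and 0.0221). In DDX6 KO 0 of 9 were called by limma, edgeR or DESeq2, beside 11.2% of all tested genes by limma. A list of 9 genes is too short to set these counts apart from those shares. In DDX6 KO 6 of the 9 had an unadjusted p-value under 0.05. At an adjusted p-value under 0.05 alone 4 of the 9 passed, all lower, beside 4032 of the 11683 tested genes. Among them Xpo5, the exporter of hairpins, Ddx17 and Srsf3 were lower by log2 values of -0.76, -0.46 and -0.28 (limma adjusted p = 0.000607, 0.000713 and 0.0133). Tarbp2 was not tested.

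The genes whose levels ran most closely with each member over the 10 libraries were named by Pearson's r of log2(CPM + 1), as a description, since all points share libraries and fall into genotypes. For Mir17hg they were Rps6ka5 (r = 0.988), Zfp91 and Rcan3. For Mir295 they were Scpep1 (r = 0.985), Lpin1 and Cfp. Mirg came closest to Tprn (r = 0.971), Mpzl2 and Efl1, and Mir22hg to Tulp4 (r = 0.978), Tes and Vill. Mir9-3hg ran with Peg10 (r = 0.985), Cald1 and Dctn6, of which the first pair lies on chromosome 6. Mir7079 ran with Cbx2 (r = 0.964), Ttpal and Tbkbp1, and Mir5136 with Gas7 (r = 0.983), S1pr2 and Slc35e1. Among the members, Mir17hg and Mir295 ran closest (r = 0.944), and Mir295 and Mir9-3hg were the most opposed (r = -0.873).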

How the data were processed

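Expression was measured by QuantSeq 3′ FWD sequencing with single-end reads. The authors deposited raw counts per gene: reads were trimmed with cutadapt 1.14, mapped uniquely to mm10 with STAR 2.5.3a and counted per gene over exons in sense orientation (featureCounts 1.5.3) against Gencode M14 without rRNA genes, with ERCC sequences added. No molecular identifiers are stated, so intervals and floors cover counting error only.

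Libraries were grouped by their labels. ERCC counts were set aside, a gene was kept where 3 or more libraries held 3 CPM or more, libraries were scaled by TMM (edgeR 4.0.16), and limma 3.58.1 (voom, R 4.3.3) was fitted on all 10 libraries with 3 genotypes, and with 4 groups for the clones. P-values are two-sided and adjusted by Benjamini-Hochberg over all tested genes. Fits were tested on simulated data. Biotypes came from Gencode M21 of the same build, exons from the count table. Exact intervals used Clopper-Pearson limits at 95%.

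Libraries with the same number in WT and DGCR8 KO deviated together (correlations of deviations from group means 0.155, 0.281 and 0.303). Between the DDX6 KO clones that correlation was 0.207. The main fits used genotype or group only, so their errors and calls leave such a pairing out. A fit with a replicate block was run as an alternative. WT and the DDX6 KO clones share only 2 numbers. Libraries of a group differed by more than sampling noise.

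The members and gene lists were chosen with earlier results of these data known. Named genes were the 7 members, both targeted genes, all tested hairpin and host genes, genes of the Dlk1-Dio3 region and of primary miRNA processing, at most 5 highest and 5 lowest called carriers of a hairpin in each knockout, genes overlapping a member or ending within 10 kb upstream, and the 3 genes most alike each member, leaving out predicted genes. Some genes that met these rules are not reported here. Spg7 and Snord68 met the overlap or distance rule beside Mir7079 and were not called or not tested. Alternatives covered scaling, filters, tools, left-out libraries, each clone alone, a replicate block, the chromosome median and hairpins in exons.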

Additional observations from a re-analysis of the deposited data

Results flagged for a closer look

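Ddx6, the targeted gene, differed between the DDX6 KO clones by a log2 value of -2.18 in clone 2 against clone 1 (limma adjusted p = 3.1e-05). In 2 of the 51 named genes checked, 1 of the 4 DDX6 KO libraries stood apart from the other 3, where chance gives about 1 in 20 groups. The highest Dio3 level was 119 CPM in clone 2 replicate 1, the others lying between 96.3 and 99.8 CPM. The lowest Ddx5 level was 545 CPM in clone 1 replicate 1, the others lying between 558 and 559 CPM. None of the 7 members had a DDX6 KO library that stood apart in this way. The check covered groups of 4 libraries, so WT and DGCR8 KO libraries, such as the low WT replicate 1 of Mirg, were not part of it.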

How the results depend on the processing

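With the fold limit dropped and an adjusted p-value alone, 4245 genes were called in DGCR8 KO and 4032 in DDX6 KO, against 1722 and 1310. Between the DDX6 KO clones 2 to 5 genes were called when 1 library was left out, against 5 with all: 3 without clone 1 replicate 2, 3 without clone 2 replicate 1 and 2 without clone 2 replicate 2. With the replicate block, 1755, 1208 and 6 genes were called in DGCR8 KO, DDX6 KO and between clones, and the block changed no call of a member. Over the alternatives tried, no value of a member changed sign against a call. In DGCR8 KO 128 of 133 values kept their side of the threshold or moved by less than the spread between libraries. The exceptions were Mirg at 0.79 without WT replicate 1, Mir7079 at -1.10 without WT replicate 3 and at -0.90 with the chromosome median subtracted, and Mir9-3hg at -1.49 with DESeq2 and -0.89 with limma-trend. In DDX6 KO 145 of 147 did, the exceptions being Mir22hg at 1.21 without WT replicate 3 and Mir5136 at -0.16 in clone 1 alone. Among the 145, Mir7079 reached -1.22 without WT replicate 2 and there met the definition of a call. Scaling by total counts moved the median of all genes in DDX6 KO to 0.15. Where carriers of a hairpin were limited to exon overlap, 21.2% and 7.30% were called, against 17.3% and 8.04%. At this depth Mir295 outside DGCR8 KO and Mir9-3hg in DGCR8 KO lay near or under 3 counts.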

Other observations

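Hairpin entries as a whole held few reads. Of 2202 genes annotated as miRNA hairpins, 157 had a count in any library, 23 had 20 counts or more over all libraries, and 11 were tested. Without Mir703, their summed level was 135 to 157 CPM in WT, 135 to 143 CPM in DGCR8 KO and 105 to 122 CPM in DDX6 KO libraries. The DGCR8 KO libraries overlapped WT in this sum, and the DDX6 KO libraries lay below both.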
